A study of Macaca fascicularis with 10 samples.

Results

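Ribosomal protein genes were examined for the balance between their paternal and maternal alleles in the dorsal raphe nucleus, a brainstem region rich in serotonin neurons. The members were all genes whose names begin with RPL, RPS, MRPL or MRPS followed by a number, P or A, without RPL38 and without the S6 kinases, which carry the same letters. They came to 62 of the 7229 genes in the table, 26 cytosolic and 36 mitochondrial. RNA came from 10 female cynomolgus macaques (Macaca fascicularis), each the daughter of a labelled mother and father, and the labels give these animals 1 tissue, no treatment and no age. The animals form 1 group. Apart from their parents, the labels set them apart by a title prefix alone, which is 10480 for daughters 7 to 10 and 10203 for daughters 1 to 6.

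The value used throughout is the paternal share. It is the column labelled paternal as a percent of both parental columns, taken where a gene had 10 or more allelic reads in a daughter. A gene has such reads in a daughter only where the parental copies can be told apart by sequence, so each gene was measured in some daughters and not in others, and the number of reads is no measure of expression alone. Depth was lowest in daughter 1, with 30090 allelic reads, and highest in daughter 6, with 999471. TPH2, the enzyme of brain serotonin synthesis, had 9561 allelic reads in all and a value in 7 daughters, while fixed markers of astrocytes, oligodendrocytes and microglia were not analysed here.

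A ribosome is built from a large and a small subunit, each a scaffold of ribosomal RNA with a coat of proteins. The cytosolic ribosome translates the messenger RNAs of nuclear genes, and its proteins are named RPL in the large subunit and RPS in the small one. Mitochondria hold a second ribosome that makes a few subunits of the respiratory chain, and its proteins, named MRPL and MRPS, are encoded in the nucleus and imported. Cytosolic ribosomal protein genes are short and highly expressed, and primate genomes carry many processed copies of them that are nearly identical in sequence. No source used here says how reads shared with such copies were assigned, so the allelic counts of cytosolic members are uncertain to that extent, and the part of such reads in the values below was not tested.

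The cytosolic set held 16 large and 10 small subunit genes, and the mitochondrial set 25 large and 11 small subunit genes. The RefSeq table of assembly T2T-MFA8v1.1 lists 85 cytosolic and 75 mitochondrial symbols under the same naming rule, of which 30.6% and 48% are in the count table. All 62 members matched a symbol there. At least 1 daughter had 10 or more reads for 26 of 26 cytosolic and 35 of 36 mitochondrial members. MRPL33 was the member without such a value, with 3 reads in daughter 7. This gave 104 cytosolic and 146 mitochondrial measurements of a gene in a daughter. Just inside the limit of 10 reads, RPL7A had 100% of its 11 reads in daughter 6 and MRPS34 20% of its 10 in daughter 9. Just outside it, RPS9 had 55.6% of 9 reads in daughter 7 and RPL34 66.7% of 9 in daughter 8.

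Cytosolic measurements rested on more reads than mitochondrial ones, with medians of 217 and 78.5. Cytosolic members took 0.712% ± 0.267 of a daughter's allelic reads and mitochondrial members 0.267% ± 0.0726 (SD, n = 10 each). The median share of a daughter averaged 50.7% ± 5.22 in cytosolic and 49.5% ± 4.57 in mitochondrial members (SD, n = 10 each).

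Cytosolic members lay farther from an equal share than mitochondrial members. The median distance of a measurement from 50% was 8.86 percentage points in the cytosolic set and 6 points in the mitochondrial set, beside 6.20 points over all genes. Of the 104 cytosolic measurements 13 had 90% or more of their reads on 1 allele, and of the 146 mitochondrial measurements 2 did. These are 12.5% and 1.37%, beside 1.87% of 27887 measurements over all genes. The 13 cytosolic measurements came from 11 genes and 7 daughters, with 4 on the paternal side and 9 on the maternal side. Most of this lay at low depth. From 10 to 29 reads 4 of 15 cytosolic and 0 of 29 mitochondrial measurements were that unequal, with 2.61% of all genes' measurements. From 30 to 99 reads it was 7 of 24 and 2 of 60, with 2.24%. From 100 to just under 300 reads it was 0 of 19 and 0 of 55, with 0.852%, and at 300 or more 2 of 46 and 0 of 2, with 0.407%. With 50 or more reads required, the shares were 5.41% of cytosolic and 1.94% of mitochondrial measurements. No test was made of this contrast, since measurements of 1 gene or 1 animal are not independent and the classes were compared with earlier results known.

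**Figure D1:**
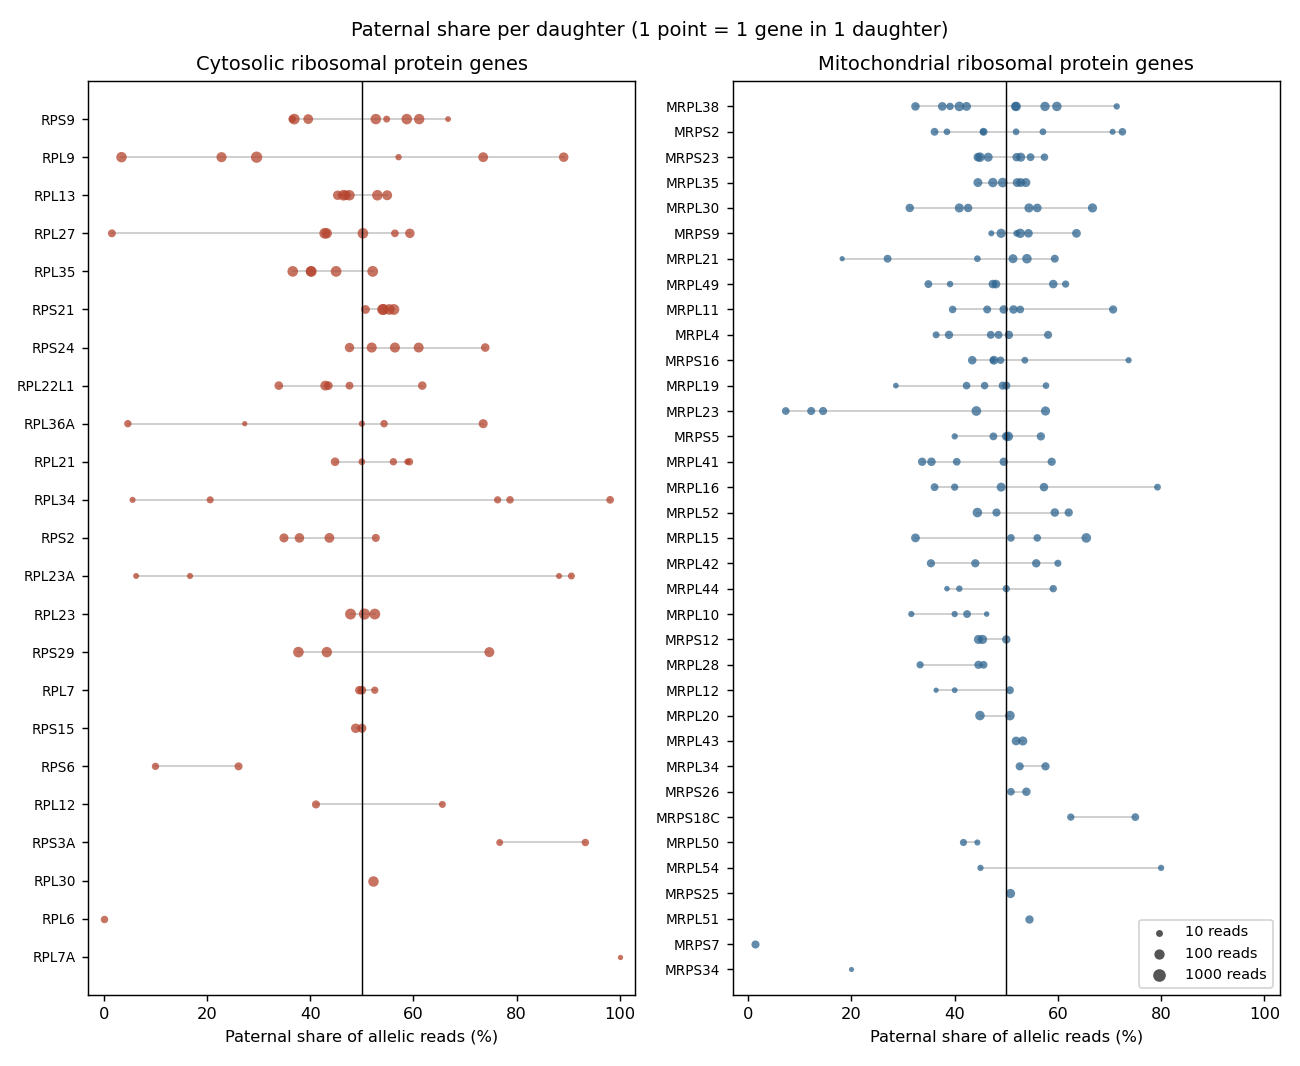
Paternal share of allelic reads (percent, horizontal axis) of the cytosolic ribosomal protein genes reported by name (left) and of the mitochondrial ones (right), 1 point per daughter with 10 or more reads, the point larger with more reads and the grey line spanning a gene's range. Genes run down the page from those measured in most daughters, and points near 0% and 100% are more frequent on the left.

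At like numbers of reads the contrast was present in the measurements outside 40% to 60%, and its size in median distance varied with depth. Between 30 and 99 reads, 14 of 24 cytosolic measurements lay outside 40% to 60% and 22 of 60 mitochondrial ones did, which is 58.3% and 36.7%, with 30.2% over all genes. From 100 to just under 300 reads it was 7 of 19 cytosolic and 7 of 55 mitochondrial measurements, or 36.8% and 12.7%, with 15.3% over all genes. At 300 or more reads, a depth which mitochondrial members reached in 2 measurements, 15 of 46 cytosolic measurements, or 32.6%, lay outside that range, with 8.54% over all genes. The median distance at that depth was 6.34 points for cytosolic members and 2.85 points for all genes. From 30 to 99 reads it was 19.8 points for cytosolic members, 7.9 for mitochondrial members and 6.41 for all genes. From 100 to just under 300 reads the medians were close, at 5.17, 4.31 and 4.22 points. Single measurements whose 95% Wilson interval left out 50% made up 56.7% of the cytosolic and 24% of the mitochondrial ones, beside 20.1% over all genes, at median depths of 217, 78.5 and 54 reads. From 100 to just under 300 reads they made up 42.1% of the cytosolic and 21.8% of the mitochondrial ones, beside 24.1% over all genes. At 300 or more reads they made up 67.4% of the cytosolic ones, beside 37.6% over all genes. These intervals cover counting error alone, since reads are not independent molecules.

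**Figure D2:**
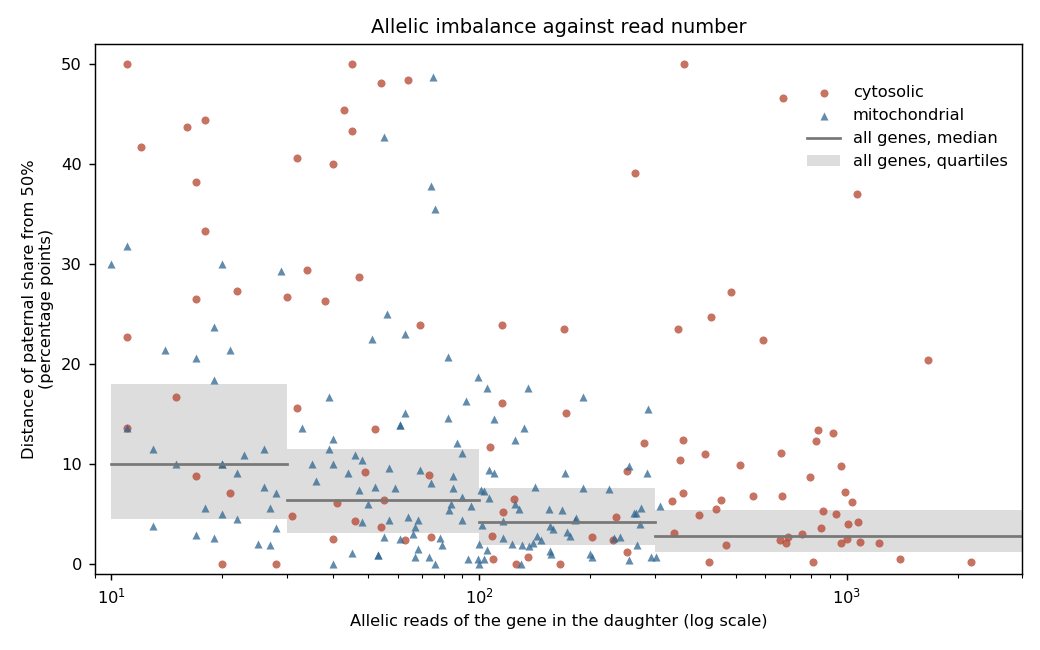
Distance of the paternal share from 50% (percentage points) against the allelic reads of the gene in that daughter (log scale), for cytosolic (circles) and mitochondrial (triangles) members, with the median and quartiles of all genes in 4 bands of read number. The band median of all genes falls to 2.85 points at 300 or more reads, where 46 cytosolic measurements have a median of 6.34.

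By daughter, the cytosolic median distance was above the mitochondrial one in 8 of 10 animals. It averaged 11.6 ± 8.55 points for cytosolic and 6.59 ± 2.15 for mitochondrial members (SD, n = 10 each), and 6.41 ± 0.825 over all genes (SD, n = 10). Daughter 10 gave the widest gap, with 33.3 points over 9 cytosolic genes and 4.69 over 15 mitochondrial genes. In daughters 4 and 5 the cytosolic median was the lower one, with 4.69 and 6.36 points against 8.11 and 6.60. The mean gap of 5.05 points was 2.43 without daughter 10, 2.06 with 20 or more reads required and 2.64 with 50 or more. Its size therefore rests in part on that animal and on measurements with under 20 reads. Within title prefix 10480 the gap averaged 8.82 ± 13.3 points (SD, n = 4), and within 10203 it averaged 2.53 ± 4.62 (SD, n = 6). The gaps in daughters 7, 8, 9 and 10 were 1.35, 3.66, 1.64 and 28.6 points, so the higher mean of 10480 rests on daughter 10.

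**Figure D3:**
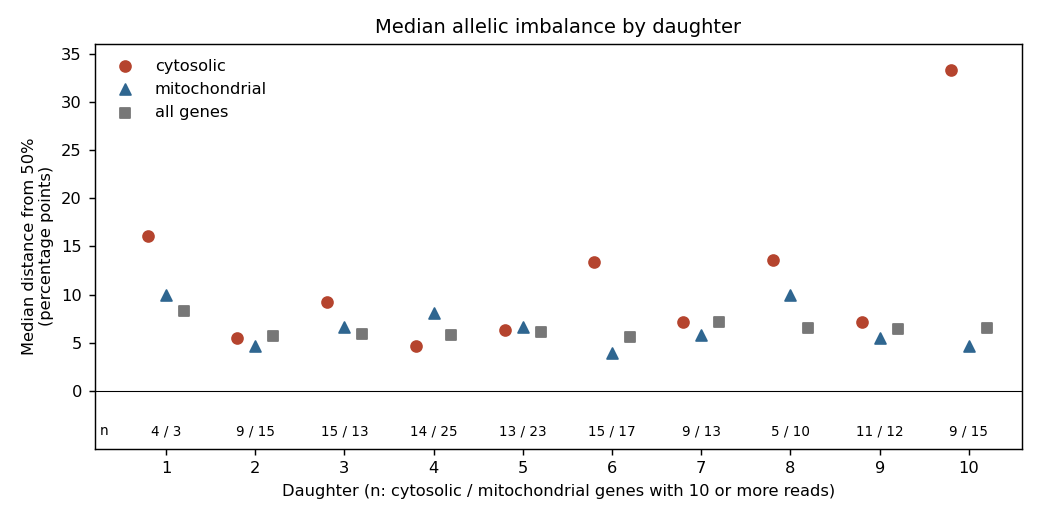
Median distance of the paternal share from 50% (percentage points) in each daughter for cytosolic members, mitochondrial members and all genes, with the number of cytosolic and mitochondrial genes measured written below. The cytosolic median is the highest in daughter 10, at 33.3 points, and lies above the mitochondrial one in 8 of 10 daughters.

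Small subunit members of the cytosolic ribosome differed between daughters at high depth as well. RPS9, which sits where messenger RNA enters, had shares from 36.5% to 66.7% in 8 daughters, with a median of 53.8%. The deep values of RPS9 fell on both sides. Daughters 2 and 9 had 58.7% and 61.1% on 794 and 661 reads, and daughters 4 and 5 had 39.6% and 36.9% on 351 and 914.

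RPS24, RPS29 and RPS21 were also read deeply. RPS24, one of the genes mutated in Diamond-Blackfan anaemia, had 56.4%, 51.9%, 73.9%, 61.0% and 47.6% in daughters 3, 6, 7, 8 and 10. Its value in daughter 7 rested on 115 reads and had an interval of 65.2 to 81.1. RPS29, another gene of that anaemia, had 43.2%, 37.7% and 74.7% in daughters 3, 4 and 8, on 664, 822 and 427 reads. RPS21 was the steadiest of them, with 50.7%, 54.0%, 54.2%, 56.2% and 55.3% in daughters 1, 2, 4, 5 and 9, on 136 to 1070 reads. All 5 of its shares lay above 50%, and in 4 of them, all but daughter 1, the interval left out 50%.

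RPS2, RPS6, RPS3A and RPS15 were seen in fewer animals. RPS2 had 37.9%, 34.9%, 43.7% and 52.7% in daughters 2, 4, 5 and 6. RPS6, the protein phosphorylated by the S6 kinases when growth signals are active, had 10% and 26.1% in daughters 3 and 5, on 40 and 69 reads. RPS3A had 76.7% and 93.3% in daughters 7 and 9, on 30 and 45 reads, both toward the paternal column. RPS15 was balanced in both of its daughters, with 48.8% of 252 and 50% of 166 reads.

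Among cytosolic large subunit members with 5 or more daughters, RPL34 and RPL9 had the widest spread. RPL9 had shares from 3.42% to 89.1% in 6 daughters, with a median of 43.3%. Daughters 3, 4 and 9 had 3.42%, 29.6% and 22.8% on 672, 1658 and 483 reads, and daughters 5 and 10 had 73.5% and 89.1% on 347 and 265. The intervals of all 5 left out 50%, while that of daughter 7, at 57.1% of 21 reads, included it. RPL34 had 20.6%, 98.1%, 76.3%, 78.7% and 5.56% in daughters 3, 4, 5, 6 and 10, on 18 to 54 reads. RPL23A, which lines the exit of the peptide tunnel, split likewise on few reads, with 88.2% and 90.6% in daughters 2 and 6 and 6.25% and 16.7% in daughters 3 and 10, each on 16 to 32 reads. Daughter 3 was on the maternal side for all 3 genes, daughter 5 on the paternal side for RPL9 and RPL34, and daughter 6 on the paternal side for RPL34 and RPL23A. Daughter 10 was paternal for RPL9 and maternal for RPL34 and RPL23A, and daughter 4 maternal for RPL9 and paternal for RPL34.

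RPL27 owed its spread to 1 animal. RPL27, a further Diamond-Blackfan gene, had shares from 1.56% to 59.3% in 6 daughters, with a median of 46.7%. The low value was 1 paternal read of 64 in daughter 1 (0.276 to 8.33), and the other 5 daughters lay between 42.8% and 59.3%. RPL6 was measured in daughter 10 alone, with 0 paternal reads of 45, which allows a share of up to 6.67%.

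Other large subunit genes lay nearer to balance. RPL13 had shares from 45.3% to 54.9% in 6 daughters, with a median of 47.3%, on 236 to 852 reads. RPL23, which lies at the face between the subunits, had 47.8%, 50.5% and 52.5% in daughters 3, 6 and 10, on 1003 to 1395 reads. RPL21 had 56.1%, 59.2%, 44.8%, 58.8% and 50% in daughters 2, 3, 5, 7 and 9, on 17 to 116 reads. RPL7 had 49.5%, 50% and 52.5% in daughters 3, 6 and 7, on 40 to 126 reads, and RPL30 had 52.1% of 683 reads in daughter 4. Of the 12 cytosolic members with 5 or more daughters, 3 kept every share between 40% and 60%, namely RPS21, RPL21 and RPL13. That is 25%, beside 18% of all such genes.

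RPL35, another protein at the tunnel exit, leaned to the maternal column. It had 40.2%, 45.0%, 40.1%, 36.6% and 52.1% in daughters 3, 4, 5, 6 and 9, on 511 to 964 reads. In daughters 3 to 6 the interval lay below 50%, and in daughter 9 it included 50%. RPL22L1, a paralog of the subunit gene RPL22, had 43.5%, 42.9%, 47.6%, 33.9% and 61.7% in daughters 4, 6, 7, 8 and 9. RPL12 had 41.1% and 65.6% in daughters 3 and 6, on 73 and 32 reads, with both intervals including 50%.

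RPL36A was the member on the X chromosome by the reference table. In females 1 X chromosome is silenced in each cell, so X-linked genes of a tissue piece can share a lean to 1 parent. RPL36A had 4.65%, 54.3%, 50%, 27.3% and 73.5% in daughters 3, 4, 5, 6 and 10, on 11 to 170 reads. The median over the other X-linked genes with 20 or more reads was 27.7%, 73.6%, 27.7%, 44.9% and 29.6% in the same daughters, from 72 to 113 genes each. In daughter 10 RPL36A (66.4 to 79.6) therefore lay on the other side of 50% from the X-linked median, and in daughters 3, 4 and 6 on the same side. Its interval included 50% in daughter 4 (40.2 to 67.8) and in daughter 6 (9.75 to 56.6), the latter on 11 reads.

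Mitochondrial members were mostly closer to balance, with 2 exceptions near 0%. MRPL23, the mitochondrial relative of RPL23A, had 14.5%, 12.2%, 7.27%, 44.2% and 57.6% in daughters 2, 3, 5, 6 and 10. The first 3 rested on 55 to 76 reads with no interval above 24.1, and the other 2 on 310 and 191 reads. The nearest genes measured on either side of MRPL23 in daughter 5, CTSD and TH, had 51.0% of 390 and 54.8% of 62 reads there. MRPS7, a small subunit protein, had 1 paternal read of 75 in daughter 4 (0.236 to 7.17) and no other value.

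Large subunit genes of the mitochondrial ribosome were measured most widely. MRPL38, seen in all 10 daughters, had shares from 32.4% to 71.4% with a median of 47.0%. Its interval lay above 50% in daughters 1, 3 and 4, at 71.4%, 59.8% and 57.5% on 21, 256 and 226 reads. It lay below 50% in daughters 2, 6 and 9, at 32.4%, 40.9% and 37.6% on 105, 286 and 125 reads. MRPL30 ranged from 31.3% to 66.7% in 6 daughters, with a median of 48.5%, MRPL21 from 18.2% to 59.4% in 6 with a median of 47.9%, and MRPL49 from 34.9% to 61.5% in 6 with a median of 47.7%. MRPL16 had 36.1%, 49.0%, 57.3%, 40% and 79.3% in daughters 4, 5, 6, 7 and 8, the last on 29 reads. MRPL15 had 65.5% and 32.4% in daughters 4 and 5, on 287 and 136 reads, with 56% and 50.9% in daughters 8 and 10. MRPL38, MRPL30, MRPL16 and MRPL15 had daughters on both sides of 50% with intervals that left it out. For MRPL21 and MRPL49 the highest shares had intervals that included 50% (47.6 to 70.2 and 45.9 to 75.1). The lowest share of MRPL21 rested on 11 reads. Its next lowest, 27.0% in daughter 10, rested on 63 reads with an interval below 50% (17.6 to 39).

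MRPL11, part of the site where elongation factors bind, ranged from 39.6% to 70.7% in 6 daughters with a median of 50.5%. MRPL4 ranged from 36.4% to 58.1% in 6 with a median of 47.7%, and MRPL41 had 33.7%, 49.5%, 35.5%, 40.4% and 58.8% in daughters 2, 4, 5, 6 and 10. MRPL35 was the steadiest large subunit gene measured in 5 or more daughters, from 44.5% to 53.8% in 6 with a median of 50.7%, on 140 to 294 reads. None of its intervals left out 50%.

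Small subunit genes of the mitochondrial ribosome had the lowest median distance of the 4 subunit sets. It was 4.48 points over their 42 measurements, against 7.64 over 104 of the mitochondrial large subunit, 9.54 over 42 of the cytosolic small subunit and 8.86 over 62 of the cytosolic large subunit. MRPS23 ranged from 44.5% to 57.4% in 7 daughters with a median of 52%. MRPS9 ranged from 47.1% to 63.6% in 6 with a median of 52.3%, and MRPS5 had 56.7%, 50%, 50.4%, 47.5% and 40% in daughters 3, 4, 5, 6 and 10. MRPS2 was wider, from 36.1% to 72.5% in 8 daughters with a median of 48.7%, on 17 to 68 reads. MRPS18C had 75% and 62.5% in daughters 3 and 4, on 56 and 40 reads. Of the 16 mitochondrial members with 5 or more daughters, 3 kept every share between 40% and 60%, namely MRPL35, MRPS23 and MRPS5. That is 18.8%, beside 18% of all such genes.

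**Figure D4:**
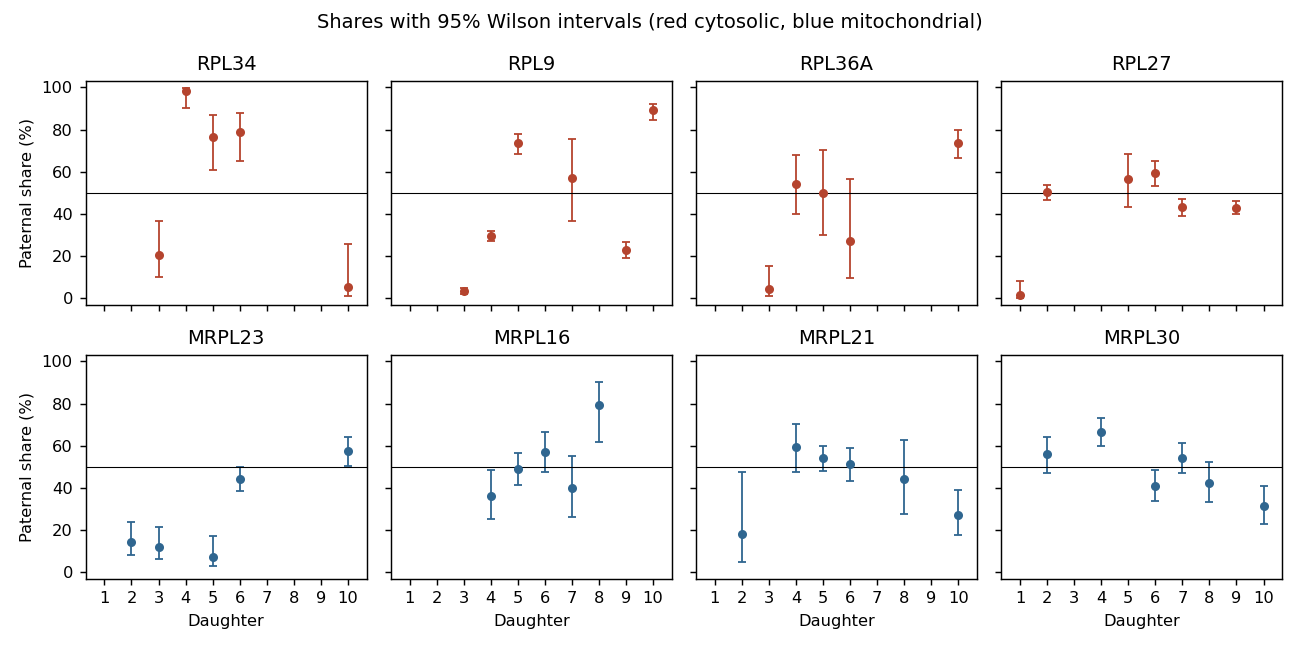
Paternal share (percent) by daughter for 4 cytosolic (top) and 4 mitochondrial (bottom) genes with large spread beyond counting error among genes measured in 5 or more daughters, with 95% Wilson intervals and a line at 50%. RPL34, RPL9, RPL36A and RPL27 each have daughters on both sides of the line, while MRPL23 has 3 daughters under 15% and 2 near balance.

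Spread between daughters was then set against counting error. The excess SD is the SD of a gene's shares over daughters after the variance expected from read number is taken away, and was computed for genes with 5 or more daughters. Its median was 9.82 points over 12 cytosolic genes and 8.36 over 16 mitochondrial genes, beside 5.61 over 2981 genes in all. It was over 10 points in 5 of 12 cytosolic and 6 of 16 mitochondrial genes, or 41.7% and 37.5%, beside 27.6% of all genes. Measured this way the classes were close in the middle and differed at the top, where RPL34 had 39.9 points, RPL9 32.4, RPL36A 25.0 and RPL27 20.8, against 22.1 for MRPL23, 16.0 for MRPL16, 14.5 for MRPL21 and 12 for MRPL30. It was 0 for RPS21, RPL21, MRPL35, MRPS9 and MRPS5. The cytosolic median moved to 16.5 points without daughter 2, 17.4 without daughter 7, 15 without daughter 8 and 24.1 without daughter 9, with 8 to 10 cytosolic genes then left.

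Several members had daughters on opposite sides. With 2 or more daughters measured, 9 of 23 cytosolic and 5 of 31 mitochondrial genes had 1 daughter above 60% and another below 40%, both with intervals that left out 50%. These are 39.1% and 16.1%, beside 12.5% of 5122 genes. Among the cytosolic genes were RPS9, RPL23A, RPL9, RPL34, RPS29, RPL36A and RPL22L1, and the mitochondrial ones MRPL30, MRPS2, MRPL38, MRPL16 and MRPL15.

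Genes next to the members with the most unequal shares were read in the same animals. For the 9 cytosolic and 2 mitochondrial measurements with 20 or more reads and 90% or more of them on 1 allele, the nearest measured gene on each side was taken from the reference order, a comparison chosen after seeing the data. Of the 22 neighbours 16 lay between 40% and 60%, 18 had intervals that included 50%, and 0 had 90% or more on 1 allele. Over all genes 30.2% of measurements lay outside 40% to 60%, 20.1% had intervals without 50% and 1.87% had 90% or more on 1 allele. The neighbours were thus near the shares of all genes. On the same side of 50% as their member lay 13 of the 22. Some had few reads, down to 12 for SLC25A39 beside RPL27, where intervals are wide. Beside RPL9 in daughter 3, WDR19 had 52.8% of 53 reads and SMIM14 49.1% of 110. Beside RPL6 in daughter 10, HECTD4 had 44.5% of 488 reads. Beside MRPS7 in daughter 4, its direct neighbours GGA3 and MIF4GD had 50.8% of 63 and 52.5% of 40 reads. The lowest neighbour share was 21.1% of 19 reads for the X-linked TRMT2B beside RPL36A in daughter 3, and the highest 70.0% of 30 for OSTC beside RPL34 in daughter 4. Up to 90 genes of the reference lay between a member and its neighbour, so the distance differs between pairs.

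The comparison of the paternal with the maternal column asked whether a member was expressed more from the same parent in all daughters. No member passed. edgeR's quasi-likelihood test with the daughter as block called 0 of 12 cytosolic and 0 of 16 mitochondrial members tested, with 0% of all 2981 genes called. At an unadjusted p under 0.05 there were 2 cytosolic and 1 mitochondrial member, beside 93 genes or 3.12% of all tested. DESeq2 also called 0 genes, with 53 at an unadjusted p under 0.05. The median log2 ratio of paternal over maternal was -0.14 over the cytosolic and -0.01 over the mitochondrial members tested, and -0.01 over all genes. A gene that is unequal on differing sides, as RPL9 was, adds to the spread in this test and not to its difference, so the 0 does not show that members were balanced.

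The members with the smallest p are given by value. RPL35 had a log2 ratio of -0.42 ± 0.14 (SE, edgeR adjusted p = 1, unadjusted 0.0185), with 4 of 5 daughters below 50%. RPS21 had 0.24 ± 0.10 (SE, edgeR adjusted p = 1, unadjusted 0.0361), with all 5 daughters above 50%. MRPL23 had -1.34 ± 0.54 (SE, edgeR adjusted p = 1, unadjusted 0.0360), with 4 of 5 below. RPS24, MRPL41 and MRPS9 followed at 0.41, -0.38 and 0.22, each with an edgeR adjusted p of 1.

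The title prefixes were compared with each other. The paternal over maternal ratio differed between prefix 10480 and prefix 10203 for 0 of 12 cytosolic and 0 of 16 mitochondrial members by edgeR, with 0.0335% of 2981 genes called. At an unadjusted p under 0.05 there were also 0 members in each class, beside 3.56% of all genes, and DESeq2 called no member. 7 cytosolic and 11 mitochondrial members tested had 2 or more daughters in each prefix, and each of the others had 1 daughter in prefix 10480.

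Ribosomal proteins under other names were taken from a fixed list. FAU, which encodes a small subunit protein fused to a ubiquitin-like one, had shares from 41.7% to 57.0% in 7 daughters, at 50.1% and 50.4% in daughters 4 and 6, on 1792 and 1798 reads. GNB2L1, the scaffold protein RACK1 of the small subunit, had 53.2%, 53.1% and 54.3% in daughters 3, 9 and 10. GADD45GIP1, a protein of the mitochondrial large subunit, had 45.5% to 55.8% in 5 daughters and 0 paternal reads of 67 in daughter 7, which allows a share of up to 4.48%. AURKAIP1, of the mitochondrial small subunit, had 90% and 47.1% in daughters 5 and 8, on 10 and 51 reads. By edgeR 0 of the 3 genes tested among the 5 with a row were called. An unadjusted p under 0.05 was found for 1 of them, beside 3.12% of all 2981 genes tested.

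Translation factors gave no call either. Of 53 cytosolic factors listed, 20 had a row and 11 were tested. By edgeR 0 were called in either direction and 1 had an unadjusted p under 0.05, beside 3.12% of all 2981 genes tested. The median distance of the cytosolic factors from 50% was 7.30 points over 98 measurements. Over the 11 with 5 or more daughters the median excess SD was 16 points, above the 9.82 of cytosolic ribosomal protein genes. It was 4.34 points over 7 mitochondrial factors, beside 5.61 over all genes. Wide spread between daughters was thus not particular to the ribosomal protein genes. EIF3C had a share of 47.0% ± 5.34 (SD, n = 10), EEF1B2 47.0% ± 4.50 (SD, n = 4) and EIF3D 49.3% ± 10.0 (SD, n = 8). Of 22 mitochondrial factors 10 had a row and 7 were tested, with 0 called and 0 at an unadjusted p under 0.05. Their median distance was 5.28 points over 51 measurements, with the elongation factor GFM1 at 40.7% ± 10.9 (SD, n = 4), the RNA-binding SLIRP at 47.1% ± 16.5 (SD, n = 5) and GFM2, which acts in ribosome recycling, at 44.7% ± 6.19 (SD, n = 6).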

How the data were processed

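RNA libraries were stranded, depleted of ribosomal RNA and read in pairs of 101 cycles, per the labels' protocols. Novoalign is named in the submitters' processing notes. The authors deposited whole-number counts of allelic reads per gene, with a paternal and a maternal column per daughter on build macFas5, per the file headers. Phasing, read filters and the treatment of near-identical copies are not stated. Columns were matched to the 10 animals by title.

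Members and gene lists were chosen with earlier results of these data known. Named members were, per class, the 10 with most daughters, the 4 with the largest and the 4 with the smallest excess SD, the 3 with the smallest p, those with 90% or more of 20 or more reads on 1 allele, and X-linked ones. Others were named after their values were seen. Of each pathway list the 3 genes with most reads, and all tissue markers with a row, were named. Shares carry 95% Wilson intervals, and a count of 0 was taken to allow 3 reads. Parental columns were compared over all genes in edgeR 4.0.16 (glmQLFit, robust, library size summed over alleles, R 4.3.3) with the daughter as block, since both columns come from the same animal. Genes needed 10 or more reads in 5 or more daughters, and calls a Benjamini-Hochberg adjusted p under 0.05. DESeq2 1.42.0, TMM factors, other read minimums, no block, and leaving out each daughter, X-linked members or paralogs were alternatives. A few members and list genes are not reported by name here, and sums and counts include them. Fits were tested on simulated data. X linkage and gene order came from assembly T2T-MFA8v1.1, another build, so no coordinates are given.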

Additional observations from a re-analysis of the deposited data

Results flagged for a closer look

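Among 39 sets of values from 4 to 10 daughters, 3 had 1 daughter far from the rest by Dixon's criterion. Chance alone meets it in about 1 of 20 sets of independent, equally precise values. The shares here rest on differing numbers of reads, so that rate does not apply to them exactly. RPL27 had a paternal share of 1.56% in daughter 1, on 64 reads, and the nearest of the other 5 daughters was at 42.8%. MRPS16, a small subunit protein of the mitochondrial ribosome, had 73.7% in daughter 7 on 19 reads, with the nearest of the others at 53.6%. The cytosolic median distance from 50% was 33.3 points in daughter 10, with the next daughter at 16.1. Of its 9 cytosolic genes, RPL9, RPL34, RPL23A, RPL36A and RPL6 were more than 20 points from 50%, and RPL23 and RPS24 were within 3 points. RPL34 and RPL23A had fewer than 20 reads there.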

How the results depend on the processing

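No member was called for a parental column or a title prefix under any setting run, by edgeR or DESeq2. Over all genes, 0 differed between the parental columns by edgeR, 2 with no filter on low counts and 0 to 1 when each daughter was left out in turn, with 1 without daughter 4. Without the daughter as block, the number was 0, with 0 at an unadjusted p under 0.05. For title prefix the 1 gene called became 0 with no filter, 0 with 20 or more reads, and 0 to 2 over the animals left out. Cytosolic members stayed above mitochondrial members in median distance, in measurements beyond 90% on 1 allele, in intervals without 50% and in excess SD. This held under the other read minimums and with any 1 daughter, the X-linked member or the paralog left out. In excess SD the classes were close, with a gap of 1.45 points in the main setting and 0.98 with 20 or more reads. Leaving out 1 daughter gave cytosolic distances of 9.23 to 12.4 points and mitochondrial ones of 6.21 to 6.89. The cytosolic excess SD ranged from 8.99 to 24.1 points, the last without daughter 9. Among named members, the mean share of RPL23A moved from 50.4% to 90.6% with 20 or more reads, where 1 daughter was left. With reads pooled over daughters RPL36A moved from 42.0% to 56.9% and RPL9 from 45.9% to 32.7%. RPS6, with 2 daughters, moved from 18% to 10% without daughter 5 and to 26.1% without daughter 3. Depth limits the shares of daughter 1 most, where 4 cytosolic and 3 mitochondrial genes were measured.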

Other observations

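Genes of ribosome assembly and of transfer RNA charging are given by their values and edgeR results per gene, without a test of a list as a whole. Of 51 ribosome biogenesis genes listed, 26 had a row and 18 were tested. By edgeR 0 were called and 2 had an unadjusted p under 0.05, beside 3.12% of all 2981 genes tested. The median distance of the listed genes from 50% was 5.44 points over 156 measurements. The helicase DDX18 had a paternal share of 50.3% ± 6.47 (SD, n = 10), the remodelling ATPase MDN1 48.4% ± 7.69 (SD, n = 9) and UTP20 52.9% ± 5.60 (SD, n = 10). Cytosolic aminoacyl-tRNA synthetases, which load amino acids onto transfer RNAs, had a median distance of 3 points over 40 measurements of 6 genes. IARS had 48.4% ± 2.69 and NARS 50.2% ± 4.12 (SD, n = 9 each), and MARS 45.3% ± 5.94 (SD, n = 6). Of the 6, 5 were tested and 0 called by edgeR, with 0 at an unadjusted p under 0.05. Their mitochondrial counterparts lay farther out on few reads, at 13.3 points over 15 measurements of 3 genes. EARS2 had 36.3% ± 11.6 (SD, n = 7), NARS2 45.6% ± 15 (SD, n = 5) and GATC, a subunit of the transfer RNA amidotransferase, 53.6% ± 18.8 (SD, n = 3). Of these 2 were tested and 0 called, with 1 at an unadjusted p under 0.05.

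Tissue markers with a row were mostly near balance. Of 5 serotonin neuron genes, TPH2 had 49.5% ± 3.55 (SD, n = 7), DDC 54.6% ± 4.30 (SD, n = 5), SLC18A2 54.0% ± 2.63 (SD, n = 3) and SLC6A4 54.2% ± 5.23 (SD, n = 2), while GCH1 ranged from 7.69% to 71.4% over 3 daughters on 53 reads in all. Of the general neuronal genes, SNAP25 had 49.1% ± 11.3 (SD, n = 7) and SYT1 54.6% in 1 daughter. The endothelial genes VWF, FLT1 and PECAM1 had 52.7% ± 11.8 (SD, n = 10), 47.4% ± 5.13 (SD, n = 8) and 49.9% ± 7.92 (SD, n = 6). The choroid plexus gene TTR had 42.6% ± 11.6 (SD, n = 6), and HBB of blood 50% of 24 reads in 1 daughter. By edgeR 0 of the 7 tested among them were called.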
